A study of Homo sapiens with 12 samples.

Results

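The 7 genes described here are tumor suppressors and phosphoinositide 3-kinase (PI3K) pathway genes that are often altered in triple-negative breast cancer (TNBC): RB1, BRCA1, BRCA2, PIK3CA, PIK3R1, AKT1 and INPP4B. They are 7 of 20090 protein-coding genes on chromosomes 1 to 22 and X, and they were listed by name. For each gene, called regions were taken at the promoter (the 1000 bp before and 100 bp after each annotated transcript start) and in a window of the whole gene with 10 kb on either side. ChIP-seq was performed in HCC70, an established TNBC cell line, cultured for 24 h with vehicle or with XY018, an antagonist of the nuclear receptor RORγ. For XY018 the sample labels state 5 µM, whereas the study's methods state a lower dose. SREBP2, RORγ (with a rabbit serum raised against a fragment of the human protein) and the histone mark H3K27ac were each profiled once per treatment. Only these 6 antibody libraries, out of 12 samples, enter the results, and the inputs do not. All libraries share 1 cell line and 1 treatment time, with no second line and no replicate, so no p-value could be given and no difference between treatments has a replicate check.

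RB1 is the founding pocket protein, which holds E2F transcription factors in check and so restrains entry into the cell cycle. BRCA1 and BRCA2 act in homologous recombination, the faithful repair of DNA double-strand breaks. PIK3CA encodes the alpha catalytic subunit of PI3K and PIK3R1 its main regulatory subunit, which stabilizes and inhibits the catalytic subunit. AKT1 is the kinase that the lipid product of PI3K brings to the membrane, and INPP4B is a lipid phosphatase that dampens AKT signaling. SREBP2 is the transcription factor that drives genes of cholesterol synthesis and uptake, RORγ is a nuclear receptor, and H3K27ac marks active promoters and enhancers.

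Each library gave a list of called regions, each with a fold enrichment and a −log10 p, and from these the number of sequenced fragments stacked at the summit of the region was recovered as a whole number. Depth was 5.56 and 5.92 tags per kb for SREBP2 with vehicle and XY018, 4.04 and 3.65 for RORγ, and 6.16 and 5.62 for H3K27ac. Between 69700 and 167264 regions were called per library. These lists reach weak regions, with q up to 0.417 and 0.608 for SREBP2 with vehicle and XY018. For RORγ q ran up to 0.371 and 0.374, and for H3K27ac up to 0.212 under either treatment. The weakest regions held 3 to 5 fragments. The study reported fewer high-confidence sites for each factor, after stricter limits. H3K27ac promoter regions lay at EGFR, FOXC1, SOX10, KRT5 and KRT17 among 6 basal breast markers, though not at KRT14, and at EPCAM, CDH1, KRT8 and KRT18, the 4 epithelial markers. GATA3 and FOXA1, which luminal cells also use, carried 189 and 225 fragments with vehicle, ESR1 carried 10, and PGR had no region. The leukocyte markers PTPRC and CD3E had no H3K27ac promoter region in either library. Of 3 fibroblast markers, COL1A1 had one of 110 and 142 fragments, and COL1A2 and PDGFRB had none.

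The sequences below are the 101 bases around the SREBP2 summit with vehicle at 9 regions on which the results turn, read from GRCh37 (the hg19 build) along the strand of the named gene, 5′ to 3′. They are shown because they place the strongest shared sites of RB1, BRCA1, BRCA2 and AKT1, the start-site region of BRCA2 that was not called with XY018, and the weak INPP4B start. Capitals mark a match on either strand to an E-box (CACGTG), a GC box (GGGCGG) or an ETS site (CCGGAAG). A sterol regulatory element (SRE, TCACNCCAC), a CCAAT box (CCAAT), a cyclic AMP response element (TGACGTCA), an E2F site (TTTGGCGC or TTTCGCGC) and the core of the RORE, in which an AT-rich stretch precedes the receptor half-site, were also searched and lie in none of these stretches. The half-site alone was not searched.
RB1 exon 1, chr13:48878052-48878152: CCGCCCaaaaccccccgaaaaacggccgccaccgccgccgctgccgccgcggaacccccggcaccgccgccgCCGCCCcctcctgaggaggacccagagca
RB1 intron 2, over the pseudogene PPP1R26P1, chr13:48892665-48892765: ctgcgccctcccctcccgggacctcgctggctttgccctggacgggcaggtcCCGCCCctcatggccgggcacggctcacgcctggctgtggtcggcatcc
RB1 intron 19, chr13:49031816-49031916: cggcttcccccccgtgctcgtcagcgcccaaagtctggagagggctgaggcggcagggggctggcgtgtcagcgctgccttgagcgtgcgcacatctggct
BRCA1, upstream of its main start, chr17:41278857-41278957: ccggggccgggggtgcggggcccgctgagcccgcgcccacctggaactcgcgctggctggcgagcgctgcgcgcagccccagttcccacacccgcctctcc
BRCA2, upstream inside ZAR1L, chr13:32885568-32885668: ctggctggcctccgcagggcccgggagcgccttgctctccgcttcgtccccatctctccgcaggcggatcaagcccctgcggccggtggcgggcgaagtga
BRCA2 start, chr13:32889550-32889650: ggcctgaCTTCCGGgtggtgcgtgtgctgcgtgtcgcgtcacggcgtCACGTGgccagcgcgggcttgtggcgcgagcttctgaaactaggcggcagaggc
AKT1 intron 1, chr14:105261462-105261562: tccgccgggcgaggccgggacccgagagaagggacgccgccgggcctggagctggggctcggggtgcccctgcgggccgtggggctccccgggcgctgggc
AKT1 intron 4, chr14:105245967-105246067: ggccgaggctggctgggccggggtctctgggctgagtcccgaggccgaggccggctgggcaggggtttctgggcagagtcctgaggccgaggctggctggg
INPP4B, upstream of its main start, chr4:143767927-143768027: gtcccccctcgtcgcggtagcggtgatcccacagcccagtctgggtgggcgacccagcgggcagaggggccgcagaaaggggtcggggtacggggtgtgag

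The promoters of RB1, PIK3CA, PIK3R1, AKT1 and INPP4B were called for SREBP2, RORγ and H3K27ac under both treatments, whereas those of BRCA1 and BRCA2 carried H3K27ac with little or none of either factor. SREBP2 was called at the promoter of 6 of the 7 genes with vehicle and 5 with XY018, against 70.6% and 62.7% of all protein-coding genes. RORγ was likewise called at 6 and 5, against 62.7% and 61.5%, and H3K27ac at 7 and 7, against 66.8% and 68%. Both factors met at 5 promoters under either treatment, against 60.3% of all genes with vehicle and 57.6% with XY018, and H3K27ac joined them at the same 5, against 50.6% and 49.6%. The promoter of BRCA2 lost its SREBP2 call with XY018, 1 of 6 against 12.5% of all genes called with vehicle. That of BRCA1 lost its RORγ call, 1 of 6 against 8.26%, where the vehicle region held 4 fragments (exact Poisson 95% interval 1.09 to 10.2) at an internal transcript start 77027 bp into the gene. This region had a −log10 q of 0.996 and drops out at q of at most 0.01. At the main (canonical) BRCA1 start no RORγ region was called. No H3K27ac promoter was lost, against 3.25% of all genes, and no promoter of the 7 was called with XY018 alone, against 1.38% for SREBP2, 6.5% for RORγ and 4.98% for H3K27ac.

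**Figure D1:**
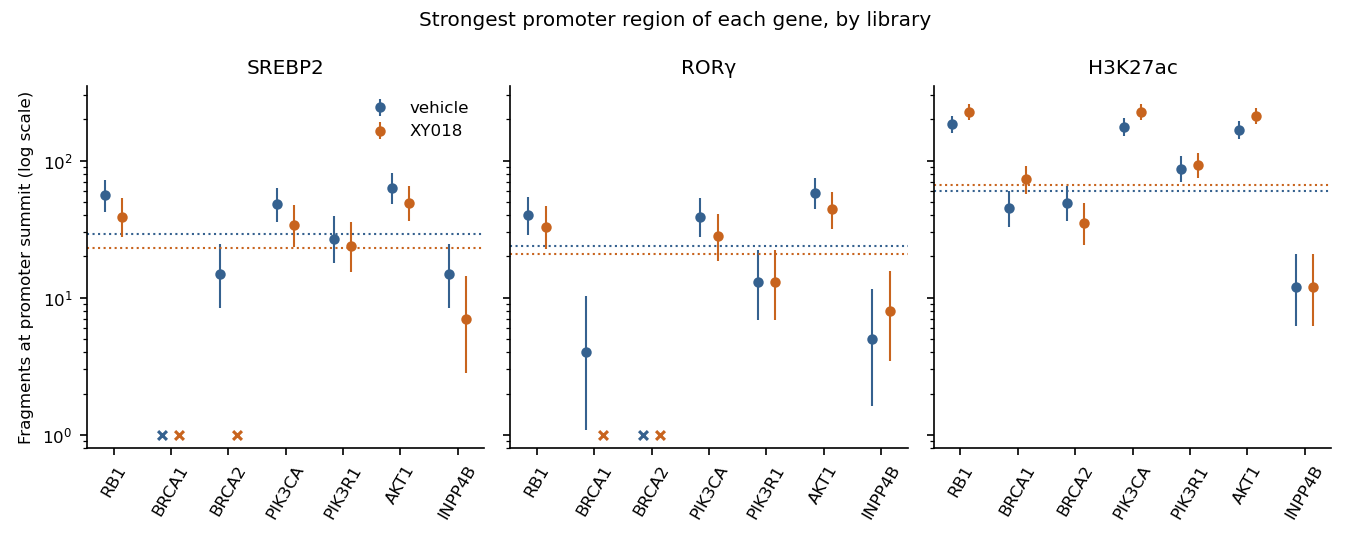
Fragments at the summit of the strongest promoter region of each gene, on a log scale, in the 3 antibodies (panels) with vehicle and XY018 (colors); bars are exact Poisson 95% intervals, crosses mark genes with no promoter region in that library, and dotted lines give the median over all genes with a promoter region. RB1, PIK3CA and AKT1 lie above the dotted lines in all 3 panels, at 168 to 227 H3K27ac fragments, and INPP4B lies lowest among genes with a region under H3K27ac, at 12. The SREBP2 and RORγ points of AKT1 and the H3K27ac points of PIK3R1 come from starts other than the main one.

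With vehicle, the strongest SREBP2 promoter region held 63 fragments at AKT1, 56 at RB1, 48 at PIK3CA, 27 at PIK3R1 and 15 each at BRCA2 and INPP4B. Each neighbor in this order had an interval that overlapped the next, and the median over the 14184 genes with a region was 29. RORγ followed the order AKT1 (58 fragments), RB1 (40), PIK3CA (39), PIK3R1 (13), INPP4B (5) and BRCA1 (4), with a median of 24 over all genes with a region. Only PIK3CA and PIK3R1 among its neighbors had intervals that did not overlap. H3K27ac fell into levels whose intervals did not overlap: RB1 (184), PIK3CA (176) and AKT1 (168), then PIK3R1 (87), then BRCA2 (49) and BRCA1 (45), and last INPP4B (12). The median over all genes with an H3K27ac region was 60. The 3 genes highest for H3K27ac were also the 3 highest for SREBP2 and for RORγ. These regions need not lie at 1 start of a gene. The AKT1 values for SREBP2 and RORγ come from intron 4, and its main start held 51 and 40. The H3K27ac value of PIK3R1 comes from 72800 bp into the gene, and its main start held 81.

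RB1 lies on the plus strand of chromosome 13 (chr13:48877880-49173572, hg19), and its promoter region also covers the start of the divergent noncoding gene RB1-DT. At the promoter, SREBP2 held 56 fragments with vehicle and 39 with XY018, with summits 215 and 248 bp downstream of the main start, in exon 1. The ratio of XY018 to vehicle, each divided by the genome-wide background of its library, was 0.590 (exact binomial 95% interval 0.382 to 0.903, counting error only). RORγ at the same place held 40 and 33 fragments, a ratio of 0.912 (0.557 to 1.48). H3K27ac rose from 184 to 227 fragments, a ratio of 1.35 (1.11 to 1.65). With this scaling the SREBP2 interval lay below 1 and the H3K27ac interval above 1, while that of RORγ spanned 1.

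A second cluster lay in RB1 intron 2, between 13648 and 17429 bp downstream of the start, over and just beyond the processed pseudogene PPP1R26P1 (chr13:48890999-48894611), whose CpG island is known as the imprinted element of this locus. SREBP2 formed 5 regions there with vehicle, of 36, 32, 19, 35 and 33 fragments, and all 5 overlapped an XY018 region, of 24, 28, 10, 14 and 14 fragments in the same order. The ratio ran from 0.339 (0.168 to 0.646) to 0.741 (0.430 to 1.27). RORγ formed 3 regions there, of 30, 15 and 15 fragments with vehicle, against 32, 13 and 9 with XY018, and each ratio interval spanned 1. The tallest H3K27ac region of the cluster, 17404 bp from the start, went from 54 to 31 fragments, a ratio of 0.629 (0.391 to 0.996), opposite in direction to the promoter. The same XY018 region also overlapped a smaller vehicle region of 14 fragments. The summits at 17429 bp (SREBP2), 17431 bp (RORγ) and 17404 bp (H3K27ac) lie beyond the end of the pseudogene. Reads from a processed pseudogene can match its parent gene, so uniqueness was checked at the SREBP2 and RORγ summits of the cluster with vehicle. Every 50-base read within 100 bp of them occurs at 1 place in the GRCh37 sequence. H3K27ac summits were not checked.

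Farther into RB1, in intron 19, SREBP2 (45 fragments with vehicle and 34 with XY018), RORγ (35 and 33) and H3K27ac (24 and 20) met within 41 bp of each other, 153979 to 154020 bp from the start, with no annotated transcript start of RB1 nearby. The SREBP2 ratio was 0.640 (0.397 to 1.02), that of RORγ 1.04 (0.628 to 1.73) and that of H3K27ac 0.913 (0.478 to 1.72). The annotated RB1 gene runs beyond its main transcript across RCBTB2, a minus-strand neighbor, and the H3K27ac region of 70 fragments under either treatment at 229338 bp sits on the start of RCBTB2, where SREBP2 held 24 and 14 and RORγ 7 and 11. Counts for the RB1 window therefore include that neighbor.

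**Figure D2:**
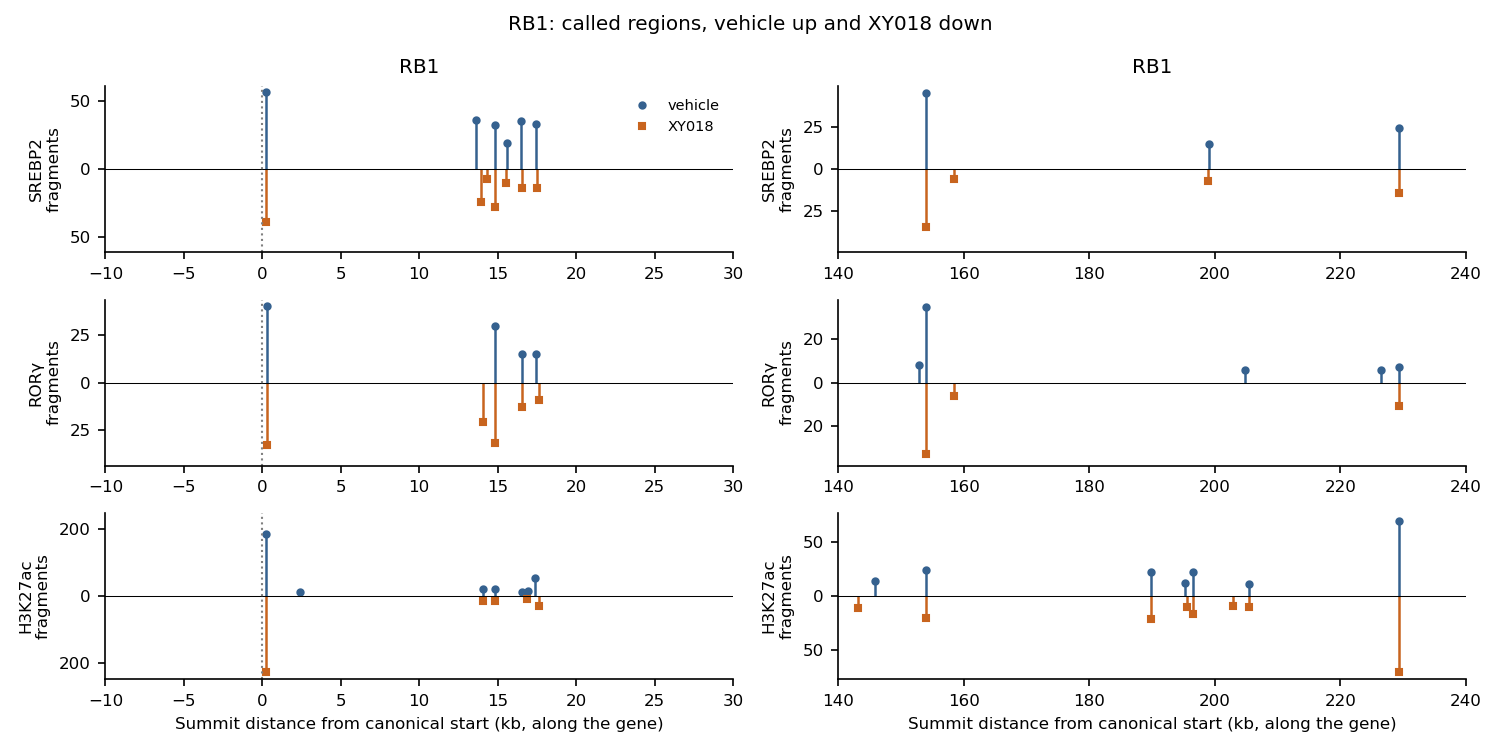
Summit fragments of each called region against its distance in kb from the main RB1 start, for SREBP2, RORγ and H3K27ac (rows), with vehicle drawn upward and XY018 downward; the left column covers the start and intron 2, the right column intron 19 to RCBTB2. SREBP2 with XY018 is shorter than with vehicle at each shared site, as at the start (56 and 39), while H3K27ac at the start is taller with XY018 (184 and 227).

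At BRCA1 (chr17:41196312-41322262, minus strand) both factors lay upstream of the promoter window rather than in it. With upstream distances written as negative, the SREBP2 summit lay at −1526 bp and the RORγ summit at −1580 bp from the main start at position 41277381, inside the divergent noncoding gene NBR2. SREBP2 held 34 fragments with vehicle and 24 with XY018, a ratio of 0.598 (0.339 to 1.04), and RORγ 36 and 35, a ratio of 1.07 (0.655 to 1.76). H3K27ac at this site went from 45 to 73 fragments, a ratio of 1.78 (1.21 to 2.64). Over the start itself the H3K27ac region was smaller, with 21 fragments with vehicle and 22 with XY018, a ratio of 1.15 (0.602 to 2.19). The site upstream counts among the promoter regions of BRCA1 because the H3K27ac region reached into the window, whereas the narrower factor regions did not. A weaker site of both factors stood farther upstream, at −33948 bp for SREBP2, where SREBP2 had 11 and 9 fragments and RORγ 14 and 7. Because the annotated BRCA1 gene reaches the start of NBR1, the third H3K27ac region counted for it, of 13 and 19 fragments (ratio 1.60, 0.750 to 3.53), also covers the promoters of NBR1 and of the noncoding gene ENSG00000267002.

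BRCA2 (chr13:32889223-32974405, plus strand) was arranged alike, with the strong factor site upstream, at −4027 bp for SREBP2 and −3993 bp for RORγ, inside ZAR1L, the minus-strand gene that shares the BRCA2 promoter. There SREBP2 went from 54 to 39 fragments, a ratio of 0.612 (0.394 to 0.941), and RORγ from 45 to 56, a ratio of 1.38 (0.913 to 2.08). H3K27ac was level at that site, with 28 and 29 fragments. At the BRCA2 start the only factor region was SREBP2 with vehicle, 15 fragments (8.40 to 24.7) with its summit at −45 bp, and no region was called there with XY018. Its sequence, printed above, holds an E-box and an ETS site. H3K27ac at the start went from 49 to 35 fragments, a ratio of 0.783 (0.492 to 1.23), with an interval that spanned 1. Over all H3K27ac regions called with XY018, 62.7% were also called with vehicle. In the rest of the BRCA2 window, 7 H3K27ac regions of 7 to 13 fragments were called with XY018 alone, so the number in the window went from 2 to 9. The SREBP2 region with the most fragments among those of the 7 windows that were called with vehicle alone also lay here, 94668 bp from the start in N4BP2L1, with 23 fragments.

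**Figure D3:**
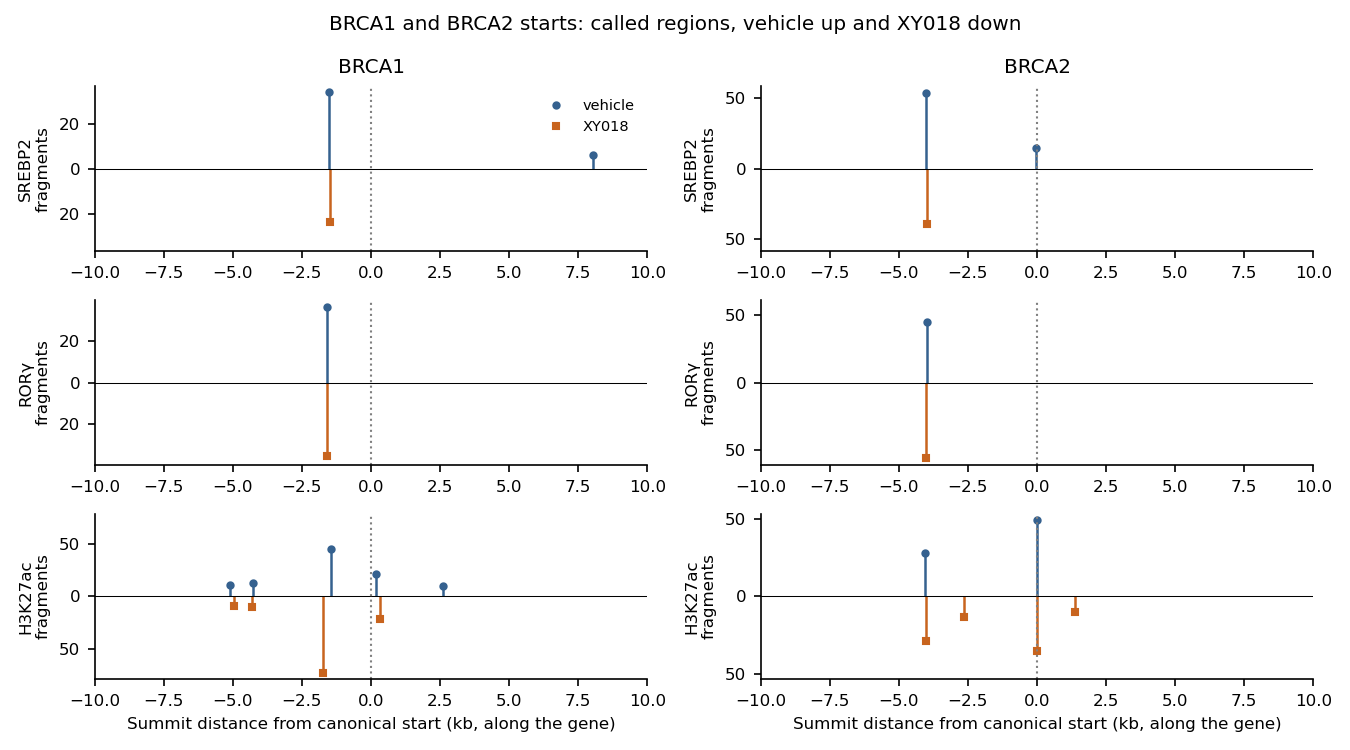
Summit fragments of called regions within 10 kb of the main starts of BRCA1 (left) and BRCA2 (right), by distance in kb along the gene, for SREBP2, RORγ and H3K27ac (rows), with vehicle upward and XY018 downward. The tallest SREBP2 and RORγ regions stand at −1526 and −1580 bp from BRCA1 and at −4027 and −3993 bp from BRCA2, and the 15-fragment SREBP2 region at the BRCA2 start has no XY018 partner.

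PIK3CA (chr3:178865902-178957881, plus strand) had 1 strong region per library, at the start that it shares with the divergent noncoding gene PIK3CA-DT. SREBP2 held 48 and 34 fragments with vehicle and XY018, a ratio of 0.600 (0.375 to 0.950), with the summit at 195 bp in the first library and 598 bp in the second. RORγ held 39 and 28, a ratio of 0.794 (0.470 to 1.32), and H3K27ac 176 and 227, a ratio of 1.41 (1.16 to 1.73). That H3K27ac region was the only one in the 112 kb PIK3CA window under either treatment. The other SREBP2 and RORγ regions of the window held 5 to 11 fragments, and none of them was called under both treatments. Of all vehicle regions under 10 fragments, 7.94% for SREBP2 and 21.3% for RORγ were called again.

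PIK3R1 (chr5:67511568-67597649, plus strand) has a second group of starts, with H3K27ac 72800 bp from the main one, and both were marked. At the main one, SREBP2 formed a region 1839 bp wide with vehicle, with 27 fragments against 24 with XY018, a ratio of 0.753 (0.416 to 1.36). The vehicle region overlapped 2 XY018 regions. The summits compared lay at 402 bp with vehicle and −215 bp with XY018, so the ratio sets different positions about this start side by side. RORγ formed several regions about this start, named here by their vehicle summits. It held 11 and 7 fragments at −274 bp, a ratio of 0.703 (0.231 to 1.99), 13 and 13 at 99 bp, and 9 and 10 at 638 bp. Of these pairs, only that at −274 bp lay in the promoter window of the main start in both libraries. H3K27ac at the main start held 81 and 73, a ratio of 0.987 (0.710 to 1.37). At the second, from which shorter transcripts begin, SREBP2 had 13 and 9 fragments, RORγ 9 and 10, and H3K27ac 87 and 93, a ratio of 1.17 (0.865 to 1.59). All of these ratio intervals spanned 1. H3K27ac at an internal promoter, with its summit 9802 bp into the gene, went from 11 to 24 fragments, a ratio of 2.39 (1.13 to 5.41).

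AKT1 (chr14:105235686-105262088, minus strand) stood apart by the density of its regions. In its 46.4 kb window SREBP2 formed 21 regions in the vehicle and 25 in the XY018 library, RORγ 20 and 26, and H3K27ac 21 and 22. That is 45.3 SREBP2 regions per 100 kb with vehicle, against a median of 5.60 over all genes, or the 96.1 percentile, and 43.1 RORγ regions per 100 kb against 7.21, likewise the 96.1 percentile. The next gene for SREBP2, BRCA2, had 4.75 per 100 kb. The RORγ regions with vehicle were all called with XY018 as well, 20 of 20, against 36.4% of all RORγ regions. Of the 21 SREBP2 regions, 15 were, against 39.8% of all. All 21 of these held at least 10 fragments, as did 16 of the 20 RORγ regions. At that strength 69.1% of all SREBP2 and 86.8% of all RORγ regions were called again.

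With vehicle, the tallest SREBP2 and RORγ regions of AKT1 lay in intron 4, 16068 and 16023 bp from the start, with 63 and 49 fragments for SREBP2 (ratio 0.659, 0.444 to 0.972) and 58 and 44 for RORγ (0.839, 0.553 to 1.26). The sequence there, printed above, is a tandem repeat: shifted by 42 bases, the stretch within 100 bp of the SREBP2 summit matches itself at 75.5% of bases. Every 50-base read of that stretch still occurs at 1 place in the genome. With XY018 the tallest RORγ region of AKT1 lay in intron 3 instead, where it went from 49 to 57 fragments (ratio 1.29, 0.862 to 1.92). H3K27ac at the intron 4 site held 26 and 33 fragments, far below the start of AKT1, where it held 168 and 213 (ratio 1.39, 1.13 to 1.71). At the start SREBP2 held 51 and 45 fragments (ratio 0.747, 0.489 to 1.14) and RORγ 40 and 40 (1.11, 0.695 to 1.76). By the deposited fold, which divides by the local background, the SREBP2 ratio there was 0.409. A second strong H3K27ac region, of 155 and 200 fragments, covered the start of the upstream neighbor ZBTB42, with a ratio of 1.41 (1.14 to 1.75). The 4 SREBP2 regions at the 3′ end of AKT1, 24074 to 26948 bp from the start and with 16, 17, 22 and 11 fragments, were called with vehicle alone. Of all SREBP2 vehicle regions of at least 10 fragments, 69.1% were called again.

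**Figure D4:**
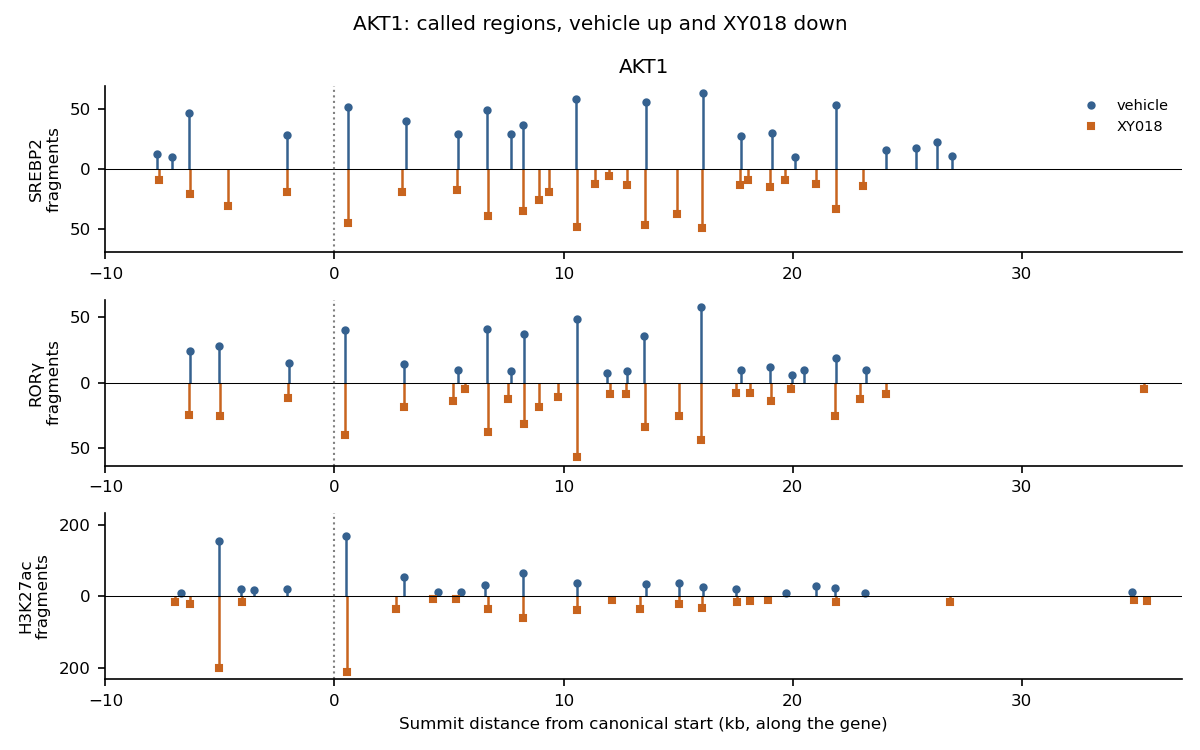
Summit fragments of each called region against its distance in kb from the main AKT1 start, for SREBP2, RORγ and H3K27ac (rows), with vehicle upward and XY018 downward. With vehicle, 15 of 21 SREBP2 regions overlap a RORγ region, and the tallest of both factors stand at 16 kb (63 and 58 fragments). The SREBP2 regions from 24074 to 26948 bp, at the 3′ end, have no RORγ partner. H3K27ac is tallest at the start (168) and at ZBTB42 upstream of it (155).

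INPP4B (chr4:142944313-143768585, minus strand), the longest of the 7 genes, had the fewest SREBP2 and RORγ regions for its length, 0.474 per 100 kb for each with vehicle. SREBP2 formed 3 small regions about the start with vehicle, of 15, 14 and 13 fragments. With XY018 they held 7, 6 and 6, with ratios of 0.395 (0.136 to 1.03), 0.363 (0.114 to 1.01) and 0.391 (0.122 to 1.10). RORγ held 5 and 8 fragments at the start, and H3K27ac 12 and 9. The H3K27ac promoter ratio of INPP4B, 1.31 (0.521 to 3.40), instead comes from internal starts 440376 bp into the gene, with 10 and 12 fragments. Taken region by region, no change could be told from counting error in any antibody. The 3 SREBP2 ratios about the start were all below 1 and were not pooled.

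Set side by side, the SREBP2 ratio at the promoter was below 1 at each of the 5 genes with a region in both libraries, as it was at 98.1% of all genes with such a pair. The median was 0.600 for the 5 genes and 0.621 for 12336 genes. For RORγ the median was 0.912 over 5 genes and 0.967 over all, with 3 of 5 below 1 against 55.2% of all genes. That median turned to 1.09 with promoters of 2500 bp either side and to 1.22 by the deposited fold. For H3K27ac it was 1.35 over 7 genes and 1.27 over all, with 6 of 7 above 1 while 19.5% of all genes were below 1. The pairs used for PIK3R1 and INPP4B lie at other starts, and at the main starts 4 of 7 were above 1 and 3 below, BRCA2 (0.783), INPP4B (0.822) and PIK3R1 (0.987), with the same median. SREBP2 was lower by 1.5-fold or more at 4 of the 5 genes, against 62.5% of all genes, and higher by that much at none, against 0.0567%. The AKT1 pair in that count (0.659) lies in intron 4, and at its main start the ratio was 0.747, a smaller drop than 1.5-fold. The RORγ pair used for AKT1 (0.839) lies in intron 4 too, where the main start had 1.11. RORγ was higher by 1.5-fold or more at INPP4B alone, against 7.36%, with an interval that spanned 1, and lower at none, against 9.52%. H3K27ac was higher by that much at BRCA1 alone, against 22.7%, and lower at none, against 3.07%. That BRCA1 pair, also the one used for the main starts, has its vehicle summit at −1438 bp. Over the BRCA1 start itself the ratio was 1.15 (0.602 to 2.19). The members thus lay near the values of all genes in each antibody, and no shift of their own could be read from them. Scaled by tags, so that fragment length does not enter (for SREBP2 185 bp with vehicle and 205 bp with XY018), the SREBP2 median was 0.665 for the members and 0.688 for all genes.

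**Figure D5:**
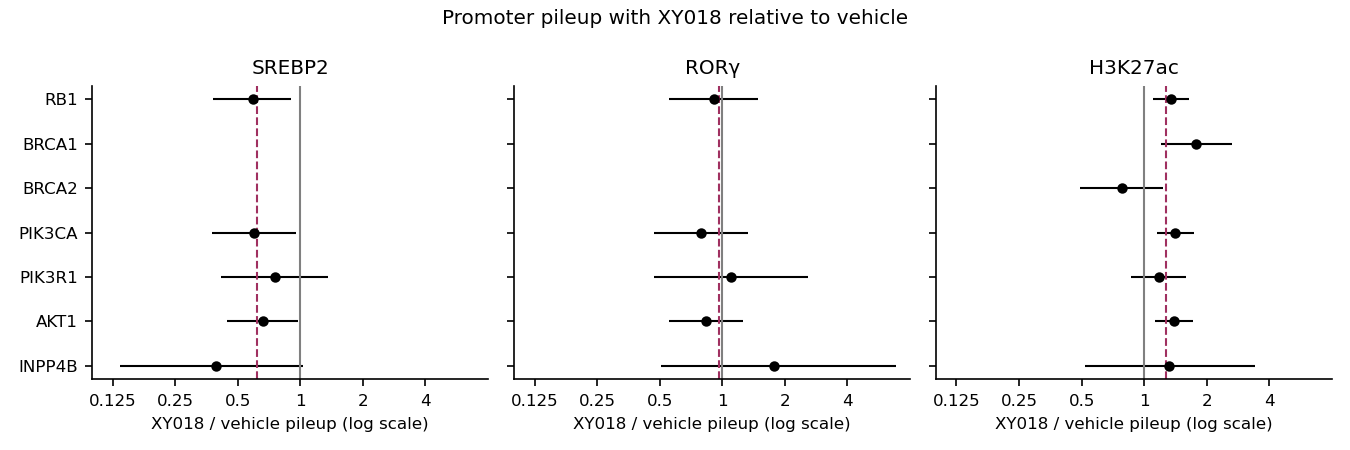
Ratio of XY018 to vehicle summit pileup at the promoter, on a log scale, for each gene with a region in both libraries; bars are exact binomial 95% intervals for counting error, the gray line marks 1 and the dashed line the median over all protein-coding genes. SREBP2 ratios lie between 0.395 and 0.753, RORγ ratios on both sides of 1, and the plotted H3K27ac ratios above 1 except at BRCA2 (0.783). The H3K27ac pairs of PIK3R1 and INPP4B come from starts other than the main one, as do the SREBP2 and RORγ pairs of AKT1. The H3K27ac pair of BRCA1 has its vehicle summit at −1438 bp.

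Across the 7 windows, all regions were then followed from vehicle to XY018. Of the SREBP2 regions, 33 of 53 were also called with XY018 (62.3%, Clopper-Pearson 95% interval 47.9 to 75.2%), against 39.8% of all SREBP2 regions. Of the RORγ regions, 36 of 66 were (54.5%, 41.8 to 66.9%), against 36.4%, and without AKT1 16 of 46 (34.8%). Of the H3K27ac regions, 46 of 65 were (70.8%, 58.2 to 81.4%), against 69.3%. In the other direction, 43 of 49 SREBP2 regions called with XY018 were also called with vehicle (against 70.2%), 40 of 67 RORγ regions (against 47.7%) and 49 of 68 H3K27ac regions (against 62.7%). The share called again was higher among strong regions. Among regions of at least 10 fragments, 33 of 42 SREBP2 regions (78.6%) were called again, against 69.1% of all such regions, as were 27 of 27 RORγ regions, against 86.8%, and 45 of 60 H3K27ac regions, against 74.3%. At 20 fragments or more the members and all regions were close, with 25 of 27 for SREBP2 against 95.2% of all, 14 of 14 for RORγ against 99.9%, and 25 of 26 for H3K27ac against 96.3%. None of the 11 SREBP2 regions under 10 fragments was called again (0 to 28.5%), against 7.94% of all such regions.

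Where a region was called under both treatments, the SREBP2 ratio was below 1 in 32 of 33 pairs, with a median of 0.586 against 0.616 over all 46730 pairs. With background scaling, the interval lay wholly below 1 in 14 of these pairs, 7 of them at AKT1 and 5 at RB1. Such intervals were not counted over all pairs. Scaled by tags, 32 of 33 ratios were still below 1, with a median of 0.650. Fewer intervals would then lie wholly below 1, since upper limits such as 0.994 at 229384 bp in RB1 move up in proportion. The 1 SREBP2 pair above 1, in AKT1 intron 3 (29 and 35 fragments, ratio 1.02), joined the vehicle region to an XY018 region whose summit lay at a taller neighbor. RORγ ratios had a median of 1.11 over 36 pairs, the same as over all pairs, with 12 below 1. The 2 RORγ intervals above 1, both in AKT1, joined a vehicle region of 9 or 10 fragments to a wider XY018 region whose summit lay elsewhere. H3K27ac ratios had a median of 1.02 over 46 pairs, against 1.15 over all pairs, with 22 below 1, against 33.6% of all pairs. RB1 had 9 of 13 H3K27ac pairs below 1 and AKT1 had 7 of 16, while at their main starts, the tallest H3K27ac regions of both, the ratio was above 1.

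Overlap between the antibodies was counted next, with AKT1 and without it. Of the 53 SREBP2 regions with vehicle, 33 overlapped a RORγ region (against 49% of all SREBP2 regions) and 29 an H3K27ac region (against 27.3%). Of the 66 RORγ regions, 38 overlapped an SREBP2 region (against 34.6%). RORγ regions overlapped H3K27ac at 31 of 66 (against 16.7%). With XY018, 41 of 49 SREBP2 regions overlapped RORγ (against 64%) and 32 of 49 H3K27ac (against 36.6%), while 41 of 67 RORγ regions overlapped SREBP2 (against 33.9%) and 38 of 67 H3K27ac (against 20.2%). Without AKT1 the RORγ shares with vehicle were 18 of 46 for SREBP2 (39.1%) and 14 of 46 for H3K27ac (30.4%), and with XY018 19 of 41 (46.3%) and 17 of 41 (41.5%). The SREBP2 shares with vehicle were then 18 of 32 for RORγ (56.3%) and 15 of 32 for H3K27ac (46.9%). The median distance between the summits of overlapping SREBP2 and RORγ regions was 46 bp with vehicle, counted from the SREBP2 regions.

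The genes of the PI3K-AKT-mTOR pathway outside the 7 were followed at their promoters. Of 24 promoters, 23 in the vehicle library and 22 in the XY018 library were called for SREBP2 (all genes 70.6% and 62.7%), 22 and 21 for RORγ (62.7% and 61.5%), and 23 and 23 for H3K27ac (66.8% and 68%). PIK3CG, the gamma catalytic subunit that is characteristic of leukocytes, was called in no library. PIK3R3, another regulatory subunit, had an SREBP2 promoter region of 21 fragments with vehicle alone and none for RORγ, and TSC1, an inhibitor of mTOR signaling, a RORγ region of 10 fragments with vehicle alone. The SREBP2 ratio was below 1 at 22 of 22 genes with a pair (median 0.673), against 98.1% of all genes. That of RORγ was below 1 at 18 of 21 (median 0.881), against 55.2%, and that of H3K27ac at 3 of 23 (median 1.40), against 19.5%.

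Homologous recombination genes other than BRCA1 and BRCA2 were followed in the same way. Of 23 promoters, 18 in the vehicle library and 15 in the XY018 library were called for SREBP2 (all genes 70.6% and 62.7%), 14 and 12 for RORγ (62.7% and 61.5%), and 20 and 22 for H3K27ac (66.8% and 68%). RAD50, of the complex that senses broken ends, had an SREBP2 promoter region of 12 fragments with vehicle alone, and the checkpoint kinase CHEK1 had a RORγ region of 6 fragments with XY018 alone. The median ratio was 0.616 over 14 genes for SREBP2, 1.11 over 10 for RORγ and 1.10 over 20 for H3K27ac, where all genes had 0.621, 0.967 and 1.27. Among pocket protein and E2F genes, SREBP2 and H3K27ac were called at 14 of 14 promoters and RORγ at 13 of 14 under both treatments, with median ratios of 0.683, 1.21 and 0.915 in that order. The differences among these lists were not tested.

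The sequence under the members was GC-rich, as were called regions in general. The median GC content within 100 bp of the SREBP2 summits was 66.7% over the 53 regions and 64.2% over all 117439 windows without unknown bases, and within 100 bp of the RORγ summits it was 62.9% over 66 regions and 53.2% over all. Restricted to at least 20 fragments, it was 70.1% against 71.6% for SREBP2 and 72.9% against 74.1% for RORγ. The SRE was found near 1 of the 53 SREBP2 summits, against 2.42% of all, and the RORE core, AT-rich stretch included, near none of the 66 RORγ summits, against 0.216%. A GC box was found near 13 of the SREBP2 summits, against 30.1%, and near 21 of the RORγ summits, against 19.6%. At 20 fragments or more, it was found near 8 of 27 SREBP2 summits, against 58.0% of all, and near 7 of 14 RORγ summits, against 62.7%. In the 300 bases from 250 upstream to 50 downstream of the main starts, GC content ran from 53.3% at BRCA1 to 83.3% at AKT1. A GC box stood at 4 of the 7 promoters, those of RB1, PIK3CA, PIK3R1 and AKT1, against 61.5% of all promoters, an ETS site at BRCA2 and PIK3CA, against 14.1%, a CCAAT box at BRCA1 and PIK3CA, against 36.0%, and an E-box at BRCA2, against 8.76%. None of the 7 held the SRE, and 1.22% of all promoters did. At 44 of the 53 SREBP2 and 41 of the 66 RORγ summits, every 50-base read within 100 bp occurs at 1 place in the genome, and at no summit did fewer than 59.2% of them.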

How the data were processed

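Per the labels, the authors processed the reads with Bowtie2, MACS2 2.1.0 and bedtools on hg19, whereas the methods of the study name BWA in place of Bowtie2, with removal of duplicate and multiply placed tags. The deposited lists each hold the peaks of 1 library, without pooling. The fold enrichment, summit pileup plus 1 over local background plus 1, was deposited by the authors as a ratio per peak, with −log10 p and −log10 q values from the same caller. The deposited display score repeats the −log10 p, is capped, and was not used, and the deposited summit offset gave the summit. Each H3K27ac list is a subset of a longer one, since its peak numbers run up to 245055, by a selection not given in the sources used here.

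The 7 members and the gene lists were chosen with earlier results of these data known. Whole fragments at the summit were solved from fold and −log10 p with the Poisson model that MACS uses. In 5 lists 100% of regions gave a whole number, within 5% of the step between neighboring numbers, and in the other 99.9991% did. The most common local background of a list, which is also its lowest, stood for the whole genome. Tags per kb are that value over the smallest region width, which MACS sets to the fragment length. These depths rest on that model. The recovery and the intervals were tested on simulated data. Regions were shared with at least 1 bp of overlap, and pairs took the XY018 region with most fragments. Where a gene had several promoter pairs, that with the largest pileup over both libraries was used. Fragment numbers have exact Poisson and shares exact Clopper-Pearson 95% intervals, which cover counting error only. No test between treatments was made, with 1 library per group. Genes, exons and starts came from GENCODE 44 lifted to GRCh37, and no region ended beyond its chromosome. Of other genes, those sharing a member's promoter, up to 3 per pathway list with a factor promoter under 1 treatment only, and the gene most like each member were named, beside cell-type markers and neighbors that hold a described region. PIK3CG was named after its values were seen. Some genes of the marker and pathway lists are not reported here by name. The alternatives were q limits, equal list lengths, promoter and gene windows, overlap and scaling, and others (the canonical start only, no AKT1, at least 10 fragments) added after the data were seen. Python 3.11.15 with numpy 2.4.6, pandas 2.3.3 and scipy 1.17.1 was used.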

Additional observations from a re-analysis of the deposited data

Results flagged for a closer look

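Scaled by background, the SREBP2 and H3K27ac ratios of XY018 to vehicle lay on opposite sides of 1 at 3 promoters, with intervals that did not include 1. These were RB1 (0.590 for SREBP2 and 1.35 for H3K27ac), PIK3CA (0.600 and 1.41) and AKT1 (0.659 and 1.39). Scaled by tags, the SREBP2 ratios were 0.653, 0.665 and 0.730 in that order. Moved up in the same proportion, the upper limits of their intervals would no longer lie below 1. The AKT1 values come from different starts, intron 4 for SREBP2 and the main start for H3K27ac. At the main AKT1 start the SREBP2 ratio was 0.747, with an interval that included 1. With 1 library behind each value, no test of one antibody against another was made. Over all protein-coding genes the medians lay on the same sides of 1, at 0.621 for SREBP2 and 1.27 for H3K27ac.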

How the results depend on the processing

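Of 93 recomputed values, 81 stayed within the interval of the reported value, or within 1.5 times for counts. Among these, the RORγ promoter count at q of at most 0.01 was 4 with vehicle and 5 with XY018, against 6 and 5 as reported. The share of RORγ vehicle regions called again was 75% at q of at most 0.01, 84.6% at q of at most 1e-05, 100% among regions of at least 10 fragments and 34.8% without AKT1, against 54.5% as reported. That of SREBP2 was 78.6% with lists of equal length and, likewise, 78.6% among regions of at least 10 fragments, against 62.3%. Without AKT1, the share of RORγ regions overlapping SREBP2 was 39.1% with vehicle and 46.3% with XY018, and that overlapping H3K27ac 30.4% and 41.5%. The median RORγ promoter ratio, 0.912, turned to 1.09 with promoters of 2500 bp either side and to 1.22 by the deposited fold. The cause was not tested. SREBP2 and H3K27ac medians kept their side of 1 in each alternative. No paired analysis was possible because each group held 1 library. At INPP4B the paired regions held 5 to 15 fragments with vehicle, and every ratio interval spanned 1.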

Other observations

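For each member with a promoter region in at least 5 of the 6 libraries, the protein-coding gene with the most similar set of 6 promoter folds was sought, by Euclidean distance on the log2 scale, among genes that share no promoter region with it. They were FBLIM1 for RB1 (distance 0.38), CPNE2 for PIK3CA (0.21), MRPL38 for PIK3R1 (0.30), KREMEN1 for AKT1 (0.31) and IFT52 for INPP4B (0.47), where the median distance to all genes ran from 4.78 to 6.77. Each is the smallest of many distances and so lies below the median by selection, and the gap shows no particular likeness.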
